A study of Rattus norvegicus with 4 samples.

Results

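Skeletal muscle cells are specified and then matured by a small circuit of DNA-binding proteins. The 4 myogenic regulatory factors Myf5, Myod1, Myog and Myf6 are basic helix-loop-helix proteins that bind the E-box as partners of the E proteins. Myf5 and Myod1 commit cells to the muscle lineage, Myog drives terminal differentiation, and Myf6, also called MRF4, acts late in that programme. The MEF2 proteins, here Mef2a, Mef2c and Mef2d, are MADS-box factors that work together with them on muscle promoters. Pax7 marks the satellite cells from which myoblasts arise, and Mymk encodes myomaker, a membrane protein that myoblasts need in order to fuse into multinucleated fibres.

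These 9 genes were examined in L6 myoblasts, an established line derived from rat skeletal muscle. L6-HGF cells carried a human hgf cDNA (hHGF) delivered by a pBabepuro retrovirus and were selected with puromycin, and L6-WT cells were labelled wild type. Hepatocyte growth factor is a secreted ligand of the receptor Met and is known in muscle as a signal that activates satellite cells and holds back their differentiation. Each line was profiled in 2 formats, either as a cell sheet formed on a thermoreactive dish, from which cells lift off together on cooling, or as a monolayer in ordinary culture. There was 1 Affymetrix rat expression array for each of the 4 conditions, which were the L6-HGF sheet, the L6-HGF monolayer, the L6-WT sheet and the L6-WT monolayer. No line with the empty vector was among them, so hHGF cannot be told apart from transduction and selection, and whether the L6-HGF line was a pool or a clone is not given in the sources used here. All cells were rat myoblasts labelled as Wistar, and no age applies to the line.

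Of the 9 genes, 7 had a probe set that the array annotation assigns to them alone, and Myf5 and Pax7 had none. The 7 genes were read by 12 probe sets, among 14217 genes in all. Mef2a had 4 probe sets, Mef2c and Mef2d had 2 each, and the other genes had 1 each. The deposited values are log2 values from which each probe set's median over the 4 arrays was subtracted. They show how the arrays differ for a gene, but not how strongly the gene was expressed, and genes cannot be ranked by level. For the same reason the presence of myoblast markers in L6 cells could not be checked. The subtraction also places the middle pair of arrays at equal distances from 0 for every probe set.

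RefSeq promoter windows on the rat build GRCr8, reaching 250 bases before the start site and 50 bases after it, were on hand for 4 of these 7 genes. Those of Myog, Myf6 and Mef2a are printed because, of the 4, Myog differed most between the lines, Myf6 belongs to the same family and differed little, and Mef2a differed between the formats with all its probe sets in the same direction. Capitals mark an E-box (CANNTG) or a MEF2 core (TANNNNTA with A or T at each N), both of which read the same on either strand. A TATA box can also match the MEF2 core.
Myog, chr13:48297226-48297525, plus strand: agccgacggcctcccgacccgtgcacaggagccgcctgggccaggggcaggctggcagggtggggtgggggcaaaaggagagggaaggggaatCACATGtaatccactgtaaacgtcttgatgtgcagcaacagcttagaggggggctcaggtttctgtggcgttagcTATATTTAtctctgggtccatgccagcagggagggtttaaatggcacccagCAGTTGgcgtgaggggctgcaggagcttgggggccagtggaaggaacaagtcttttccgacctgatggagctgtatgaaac
Myf6, chr7:44701264-44701563, minus strand: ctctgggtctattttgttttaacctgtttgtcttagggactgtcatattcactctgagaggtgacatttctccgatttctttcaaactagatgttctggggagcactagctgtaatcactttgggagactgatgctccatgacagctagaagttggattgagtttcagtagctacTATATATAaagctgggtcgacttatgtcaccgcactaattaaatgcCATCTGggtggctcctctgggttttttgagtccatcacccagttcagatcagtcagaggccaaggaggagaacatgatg
Mef2a, chr1:130392113-130392412, minus strand: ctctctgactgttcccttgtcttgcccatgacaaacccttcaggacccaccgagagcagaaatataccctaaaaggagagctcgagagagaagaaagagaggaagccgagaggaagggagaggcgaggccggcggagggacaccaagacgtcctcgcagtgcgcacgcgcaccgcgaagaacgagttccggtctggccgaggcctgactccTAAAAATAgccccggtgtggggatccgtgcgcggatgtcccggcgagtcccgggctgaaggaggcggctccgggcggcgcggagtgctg

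The Myog window held 2 E-boxes, which began at bases -157 and -31 from the start site, and 1 MEF2 core at -82. The Myf6 window held 1 E-box at -29 and 1 MEF2 core at -75, and the Mef2a window held 1 MEF2 core at -39 and no E-box. No 2 matches overlapped in these windows. Of 33469 rat promoter windows, 72.1% held an E-box and 10% held a MEF2 core, so that the E-box in particular is common at this length. These matches describe letters and do not show that a factor bound there.

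With 1 array per condition there was no replicate against which to set a difference within a format or within a line. The spread that could be measured was that of 45 bacterial control probe sets, whose transcripts are not made by the cells. Their differences had SDs of 0.22 for L6-HGF minus L6-WT sheets, 0.12 for the same difference in monolayers, 0.16 for sheet minus monolayer in L6-HGF and 0.18 in L6-WT, all on the log2 scale. Their mean differences, in the same order, were 0.0058, 0.09, 0.12 and 0.20, so the SDs do not describe a spread around 0. None of the 45 passed 2-fold. This spread is technical and leaves out the variation between cultures. The rat gene Hgf was at 0.50 in sheets and 0.38 in monolayers for L6-HGF minus L6-WT, and whether its probes read the human transcript was not tested. A difference past 2-fold is referred to here as a call, and a test was possible only by pooling the formats or the lines.

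Mymk was lower in L6-HGF than in L6-WT by 2-fold or more in both formats. Its centred log2 value was -0.74 in the L6-HGF sheet, -0.26 in the L6-HGF monolayer, 0.26 in the L6-WT sheet and 1.02 in the L6-WT monolayer. Both L6-HGF arrays thus lay below both L6-WT arrays, and within each line the sheet lay below the monolayer. L6-HGF minus L6-WT came to -1.002 in sheets, a 2.003-fold lower signal, and to -1.28 in monolayers, a 2.43-fold lower signal.

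In sheets Mymk stood at the edge of the threshold, since 132 of the 135 genes past 2-fold lower had a larger drop. In monolayers 22 of 44 such genes had a larger drop, and Mymk was 23rd from the lowest of all 14217 genes. The sheet difference was 4.59 times the SD of the bacterial controls and the monolayer difference 10.6 times. After quantile normalisation of the arrays the difference in sheets was -0.80, short of 2-fold, whereas that in monolayers was -1.42.

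Myog followed the same order of arrays over a smaller range and did not reach 2-fold. Its centred log2 value was -0.62 in the L6-HGF sheet, -0.16 in the L6-HGF monolayer, 0.16 in the L6-WT sheet and 0.44 in the L6-WT monolayer. As for Mymk, the groups of L6-HGF and L6-WT arrays did not overlap. The signal was 1.71-fold lower in L6-HGF than in L6-WT in sheets (log2 difference -0.78) and 1.51-fold lower in monolayers (-0.60). From the lowest of all genes, Myog ranked 271 in sheets and 178 in monolayers.

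Mymk was therefore the 1 gene of 7 past 2-fold lower in sheets, where 0.95% of all genes were, and the 1 gene of 7 past 2-fold lower in monolayers, where the share was 0.309%. None of the 7 was past 2-fold higher, against 0.492% of all genes in sheets and 0.225% in monolayers. At 1.5-fold lower 2 of the 7, Mymk and Myog, passed in each format, where 3.58% of all genes did so in sheets, 1.29% in monolayers and 0.542% in both. The difference was below 0 in both formats for the same 2 of 7 genes and for 30.4% of all genes. Arrays of the L6-HGF line lay entirely below those of the L6-WT line for 2 of 7 genes, as compared to 15.2% of all genes. The full order of the 4 arrays seen for Mymk and Myog was found in 3.57% of genes.

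**Figure D1:**
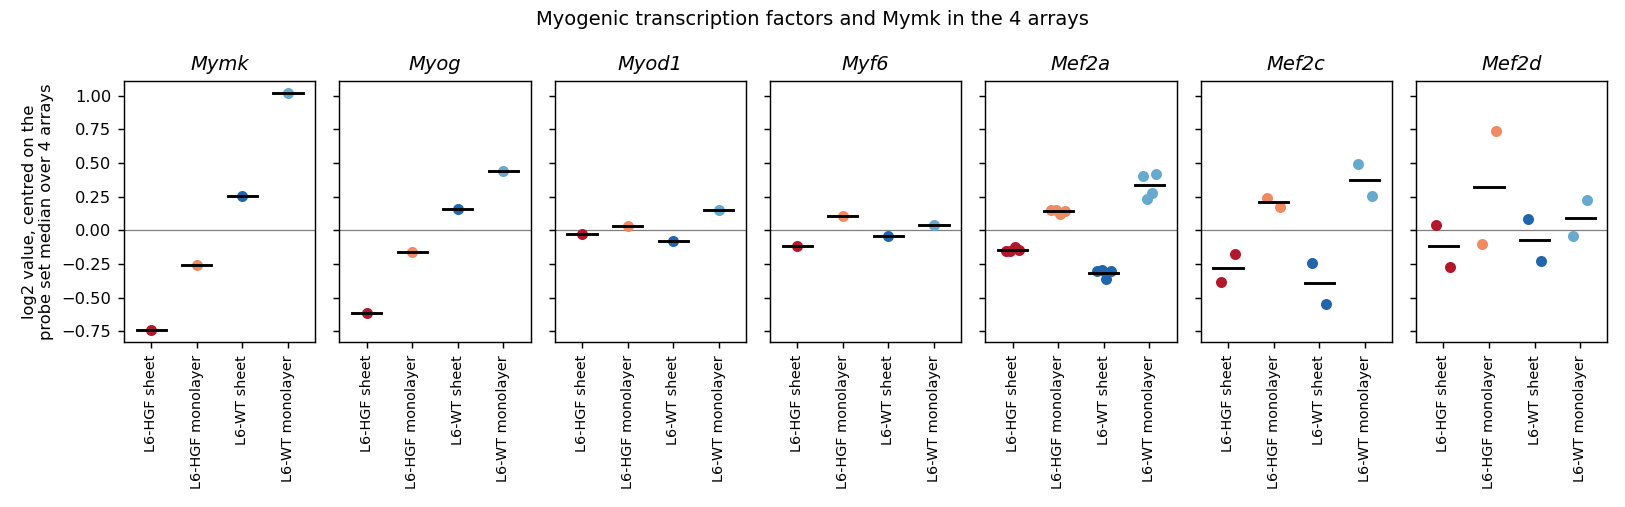
Centred log2 value (y axis) of each of the 7 genes in the L6-HGF sheet, L6-HGF monolayer, L6-WT sheet and L6-WT monolayer arrays (x axis). Points are probe sets and bars are the gene's mean over its probe sets. Mymk and Myog climb across the 4 arrays in that order, ending at 1.02 and 0.44 in the L6-WT monolayer, while both sheets of Mef2a and Mef2c lie below both monolayers.

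Pooling both formats in limma, with format as the other term, gave Mymk a log2 difference of -1.14 ± 0.12 (SE) between 2 L6-HGF and 2 L6-WT arrays. The adjusted p was 0.443 over 14217 genes, and the unadjusted p from the same limma fit was 0.000649. For Myog limma gave -0.69 ± 0.11 (SE), with an adjusted p of 0.526 and an unadjusted p of 0.00298. The fit called 0 of 14217 genes (0%), the smallest adjusted p being 0.424, although 710 genes (4.99%) were lower and 602 (4.23%) higher at an unadjusted p under 0.05. After quantile normalisation limma called 2 genes, Acta1 at -1.89 ± 0.11 (SE) and Nrep at -1.74 ± 0.11 (SE), with an adjusted p of 0.0484 each, and none of the 7. In the fit on the values as deposited, Myog and Mymk were 2 of the genes under an unadjusted p of 0.05 and the other 5 genes were not. An exact permutation of 2 against 2 arrays cannot give a two-sided p below 0.333, so neither difference could have passed a test of that kind. The 2 arrays of a line were a sheet and a monolayer and not replicates. The residual of the limma fit holds noise and any true change of the line difference with format. Its SEs and p-values therefore do not measure the variation between cultures. With format left out of the limma model the SE was 0.32 for Mymk and 0.21 for Myog.

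Myod1 and Myf6, the remaining regulatory factors on the array, differed little between the lines. Myod1 had centred log2 values of -0.03 in the L6-HGF sheet, 0.03 in the L6-HGF monolayer, -0.08 in the L6-WT sheet and 0.15 in the L6-WT monolayer. Its L6-HGF minus L6-WT difference was 0.05 in sheets and -0.12 in monolayers. Arrays of both lines overlapped.

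For Myf6 the centred log2 values were -0.12 in the L6-HGF sheet, 0.11 in the L6-HGF monolayer, -0.04 in the L6-WT sheet and 0.04 in the L6-WT monolayer. L6-HGF minus L6-WT was -0.08 in sheets and 0.06 in monolayers, smaller in size than 1 SD of the bacterial controls in each. Over the 4 arrays the whole range of both genes was 0.23, which ranked 10871 from the largest of all genes for Myod1 and 10952 for Myf6. As their level is not known, so small a range cannot be told apart from that of a gene near background.

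As means over probe sets, all 7 genes had lower values in sheets than in monolayers in both lines, none of them past 2-fold. Mef2d is among them only by its mean, since its 2 probe sets ran in opposite directions. Myod1 in L6-HGF, at -0.06, and Myf6 and Mef2d in L6-WT, at -0.08 and -0.17, were also smaller in size than 1 SD of the bacterial controls. The controls themselves had mean differences of 0.12 in L6-HGF and 0.20 in L6-WT. After scaling to them, these values of Myod1, Myf6 and Mef2d were -0.18, -0.28 and -0.37. A lower value in sheets in both lines was seen for 31.3% of all genes. Of all genes 2.57% were past 2-fold lower and 1.17% past 2-fold higher in L6-HGF, and 0.492% lower and 0.717% higher in L6-WT, and 0 of the 7 genes were among them in either line. Their median difference between sheet and monolayer was -0.44 in L6-HGF and -0.28 in L6-WT, as compared to a median of 0.03 over all genes in each line. Both sheets lay below both monolayers for 5 of the 7 genes, Myod1, Myf6, Mef2a, Mef2c and, by its mean but not by 1 of its 2 probe sets, Mef2d, and for 24.3% of all genes. For Myod1, Mef2a and, by its mean, Mef2c the L6-WT sheet was the lowest array and the L6-WT monolayer the highest, with both L6-HGF arrays between them and the sheet below the monolayer, an order found in 3.76% of genes. In 1 probe set of Mef2c the L6-HGF sheet was the lowest, at -0.39, and the L6-WT sheet was at -0.24. Scaling the arrays to the bacterial controls kept the 7 genes below 0 in both lines but shifted the median of all genes as well, by -0.12 in L6-HGF and -0.20 in L6-WT.

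Mef2c, a MEF2 factor that in mice is required for heart and muscle development, had the most negative sheet minus monolayer difference of the 7 in L6-WT. Its centred log2 value was -0.28 in the L6-HGF sheet, 0.21 in the L6-HGF monolayer, -0.39 in the L6-WT sheet and 0.37 in the L6-WT monolayer. Both sheets were below both monolayers. The sheet minus monolayer difference was -0.49 in L6-HGF, 1.40-fold lower, and -0.77 in L6-WT, 1.70-fold lower, where Mef2c ranked 190 from the lowest of all genes. Both probe sets were lower in sheets, with differences of -0.63 and -0.35 in L6-HGF and of -0.74 and -0.80 in L6-WT.

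Mef2a, which is expressed in many tissues, behaved in the same way over a smaller range. The centred log2 values were -0.14 in the L6-HGF sheet, 0.14 in the L6-HGF monolayer, -0.32 in the L6-WT sheet and 0.33 in the L6-WT monolayer. Sheet minus monolayer came to -0.29 in L6-HGF, 1.22-fold lower, and -0.65 in L6-WT, 1.57-fold lower. Its 4 probe sets lay close together, between -0.30 and -0.25 in L6-HGF and between -0.72 and -0.53 in L6-WT.

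The third factor of the family, Mef2d, had centred log2 values of -0.12 in the L6-HGF sheet, 0.32 in the L6-HGF monolayer, -0.07 in the L6-WT sheet and 0.09 in the L6-WT monolayer. The mean of its probe sets gave a sheet minus monolayer difference of -0.44 in L6-HGF and -0.17 in L6-WT. That mean hides a disagreement, because 1 probe set gave -1.02 in L6-HGF and -0.46 in L6-WT and the other gave 0.14 and 0.13. No direction can be given for Mef2d as a whole from these probe sets.

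Between the lines the MEF2 genes differed by less than 1.5-fold in either format. L6-HGF minus L6-WT was 0.17 in sheets and -0.19 in monolayers for Mef2a, 0.11 and -0.17 for Mef2c, and -0.05 and 0.23 for Mef2d. The 2 probe sets of Mef2c had opposite signs in sheets, -0.14 and 0.37, and those of Mef2d had opposite signs in monolayers, -0.06 and 0.51. Arrays of the L6-HGF and L6-WT lines overlapped for each of the 3 genes.

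Mymk and Myog were also lower in sheets than in monolayers within each line. For Mymk the sheet minus monolayer difference was -0.49 in L6-HGF and -0.76 in L6-WT, the value in L6-WT being 1.70-fold and ranking 202 from the lowest of all genes. After quantile normalisation the value of Mymk in L6-HGF was -0.25. For Myog the difference was -0.46 in L6-HGF and -0.28 in L6-WT as deposited. At 1.5-fold, 0 of the 7 genes passed in L6-HGF, where 7.28% of all genes were lower by that much, and 3 passed in L6-WT, where the share was 3.76%. These 3 were Mymk, Mef2c and Mef2a.

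**Figure D2:**
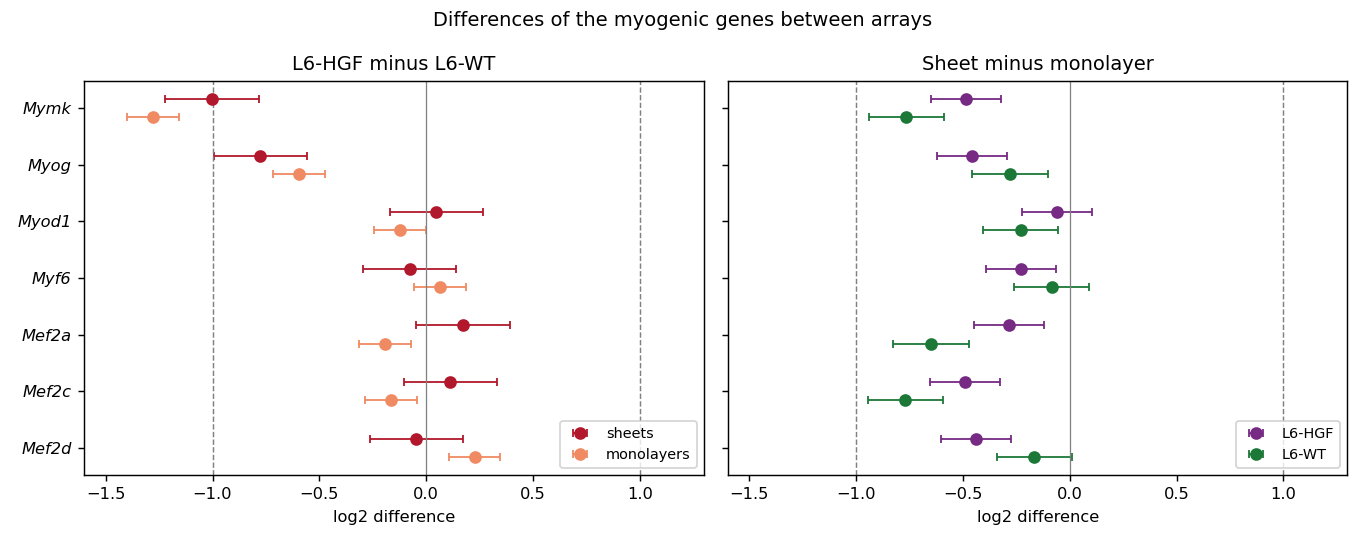
Log2 differences (x axis) of the 7 genes (y axis), with L6-HGF minus L6-WT in sheets and monolayers on the left and sheet minus monolayer in L6-HGF and L6-WT on the right. Bars are 1 SD of the 45 bacterial controls on either side of the value, and dashed lines mark 2-fold. The bars leave out the mean difference of these controls. On the left Mymk, at -1.002 and -1.28, and Myog, at -0.78 and -0.60, stand apart from the other genes, and on the right all 14 points are below 0.

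Pooling both lines in limma gave sheet minus monolayer differences of -0.63 ± 0.12 (SE) for Mef2c and -0.63 ± 0.12 (SE) for Mymk, each with an adjusted p of 0.121. Limma gave -0.47 ± 0.13 (SE, adjusted p = 0.160) for Mef2a and -0.37 ± 0.11 (SE, adjusted p = 0.162) for Myog. For the other 3 genes the limma adjusted p lay between 0.229 for Mef2d and 0.451 for Myod1. The limma fit called 2 of 14217 genes (0.0141%), and none of the 7. These were Txnip, the inhibitor of thioredoxin, at -3.80 ± 0.10 (SE) and the matrix gene Dpt at 3.41 ± 0.10 (SE), each with a limma adjusted p of 0.0339. At an unadjusted p under 0.05 it had 1892 genes (13.3%) lower and 1575 (11.1%) higher, among them the 4 genes Mef2a, Mef2c, Mymk and Myog. With the cell line left out of the limma model the unadjusted p was 0.271 for Mymk and 0.294 for Myog, so that only Mef2a and Mef2c of the 7 stayed under 0.05. The 2 arrays of a format came from different lines, so these SEs and p-values do not measure the variation between cultures either.

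Whether the effect of hHGF differed between formats could not be tested with 1 array per condition. As a description, the L6-HGF minus L6-WT difference in sheets less that in monolayers was 0.28 for Mymk and -0.18 for Myog. It ranged from -0.27 for Mef2d to 0.36 for Mef2a among the 7 genes, and its SD over all genes was 0.34. Mymk was therefore a little less reduced in sheets than in monolayers, by less than the spread of all genes.

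**Figure D3:**
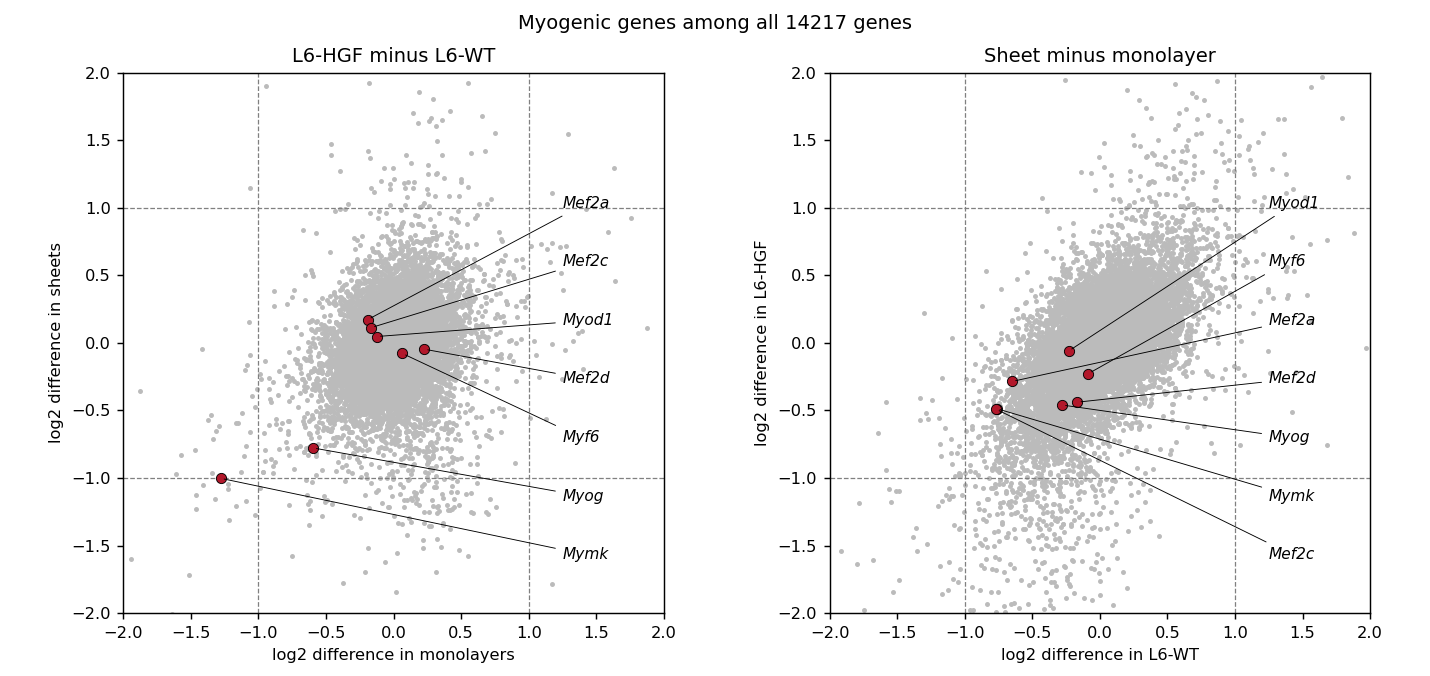
Log2 differences of all 14217 genes (grey) and the 7 genes (red). On the left L6-HGF minus L6-WT in sheets (y axis) is set against the same in monolayers (x axis), and on the right sheet minus monolayer in L6-HGF (y axis) against L6-WT (x axis). Dashed lines mark 2-fold, and 14 genes on the left and 64 on the right fall outside the axes. Mymk lies on the 2-fold line of sheets and past that of monolayers, and on the right all 7 genes lie at the lower left, below 0 on both axes and inside the 2-fold lines.

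Over the 4 arrays the gene nearest to Mymk was Nrp1, the semaphorin and VEGF co-receptor neuropilin, at a Euclidean distance of 0.08 on the log2 scale. Its centred log2 values were -0.77 in the L6-HGF sheet, -0.27 in the L6-HGF monolayer, 0.27 in the L6-WT sheet and 0.95 in the L6-WT monolayer. Dzip1 at 0.30 and the glutamate transporter gene Slc1a3 at 0.30 came next. For Myog the nearest were Mxd4, a MAX partner, at 0.05, Csad, an enzyme of taurine synthesis, at 0.11, and Mybph, a myosin binding protein of muscle, at 0.12. Mymk and Myog were 0.61 apart from each other, since Mymk varied more, and Mef2a and Mef2c were 0.18 apart. With 4 arrays, many genes share an order by construction, and these distances are a description only.

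The genes with which the regulatory factors work were read from 5 lists. Of 25 partners and coactivators, 20 were measured, and none passed 2-fold in any of the 4 differences. Past 2-fold either way were 1.44% of all genes between the lines in sheets and 0.535% in monolayers. Between the formats the shares were 3.75% in L6-HGF and 1.21% in L6-WT, so that a count of 0 among 20 genes is near them. The E proteins, the obligate dimer partners of the regulatory factors, gave L6-HGF minus L6-WT differences in sheets and monolayers of -0.18 and 0.14 for Tcf3, 0.35 and 0.35 for Tcf4, and 0.27 and -0.03 for Tcf12. Between sheet and monolayer the 20 genes had a median of -0.17 in L6-HGF and -0.24 in L6-WT, as compared to 0.03 over all genes in each line. In L6-HGF 15 of the 20 were below 0, against 45.9% of all genes, and in L6-WT 16 were, against 45.6%. Smarca4, the ATPase of a chromatin remodelling complex that myogenic factors recruit, had sheet minus monolayer differences of -0.82 in L6-HGF and -0.76 in L6-WT.

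Of 25 inhibitors of these factors, 21 were measured, and the medians stayed between -0.03 and 0.05 in the 4 differences. The list holds the Id genes, whose proteins bind E proteins and keep them from the regulatory factors, and of these Id3 and Id4 varied most. Id3 had centred log2 values of -1.504 in the L6-HGF sheet, 1.04 in the L6-HGF monolayer, -0.29 in the L6-WT sheet and 0.29 in the L6-WT monolayer. Its L6-HGF minus L6-WT difference was -1.21 in sheets and 0.76 in monolayers, and sheet minus monolayer was -2.55 in L6-HGF and -0.58 in L6-WT. Id3 was read by 1 probe set, which the array's naming marks as reading several transcripts of the gene.

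Id4 had differences of -0.90 in sheets and 0.61 in monolayers between the lines, and -1.28 in L6-HGF and 0.23 in L6-WT between the formats. Its 4 probe sets gave -0.95, -1.04, -0.21 and -1.39 between the lines in sheets. Between the formats in L6-HGF they gave -0.87, -1.66, -0.83 and -1.77, so not all of them passed 2-fold where their mean did. Id1 was at -0.82 in sheets and 0.01 in monolayers between the lines, and Id2 was at 0.51 and 0.50. Bhlhe40, a repressor that can bind Myod1, was higher in the L6-HGF sheet than in any other array, by 1.14 over the L6-WT sheet and 1.13 over the L6-HGF monolayer. Hes1, a target of Notch, gave L6-HGF minus L6-WT differences of -0.39 in sheets and -1.05 in monolayers. Id3 and Bhlhe40 were the only 2 of the 21 past 2-fold between the lines in sheets, Hes1 the only 1 in monolayers, Id3, Id4 and Bhlhe40 the only 3 between the formats in L6-HGF, and none passed in L6-WT. Past 2-fold either way were 1.44% of all genes between the lines in sheets and 0.535% in monolayers. Between the formats the shares were 3.75% in L6-HGF and 1.21% in L6-WT. After quantile normalisation 0 of the 21 passed between the lines in sheets.

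Of 32 genes of myoblast adhesion and fusion, 29 were measured, and none passed 2-fold between L6-HGF and L6-WT in either format. Of all genes 1.44% did so in sheets and 0.535% in monolayers, so that a count of 0 among 29 is near the share of all genes. The median of the 29 was -0.11 in sheets and -0.04 in monolayers, beside -0.02 and 0.0016 over all genes, with 18 of 29 genes below 0 in sheets and 16 in monolayers, as compared to 53.7% and 49.4% of all genes. Cav3, the muscle caveolin, was the lowest of the 29 in both, at -0.56 in sheets and -0.41 in monolayers, and Dock5, an activator of Rac, was the highest, at 0.56 and 0.63. Mymx, which encodes the second fusion protein of muscle, was not among the genes measured.

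Past 2-fold lower between sheet and monolayer were 2.57% of all genes in L6-HGF and 0.492% in L6-WT. Of the 29 genes 1 passed, the laminin receptor subunit Itga7, at -1.13 in L6-HGF and -1.14 in L6-WT. Its 3 probe sets did not act alike. A pair of them gave -1.44 and -1.72 in L6-HGF and -1.74 and -1.88 in L6-WT, and the other gave -0.22 in L6-HGF and 0.20 in L6-WT. The array's naming marks that pair as reading several transcripts of the gene, and without it, or after quantile normalisation in L6-HGF, 0 of the 29 passed.

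Of 38 genes switched on as muscle differentiates, 35 were measured, and those past 2-fold between the lines were sarcomere genes. Acta1, the actin of skeletal muscle, had centred log2 values of -0.87 in the L6-HGF sheet, -0.82 in the L6-HGF monolayer, 1.14 in the L6-WT sheet and 0.82 in the L6-WT monolayer. Both L6-HGF arrays were below both L6-WT arrays, with differences of -2.01 in sheets and -1.64 in monolayers. Tnnc2, the fast troponin C, was also lower in both formats, at -0.97 in sheets and -1.61 in monolayers, and Tnnc1, the slow and cardiac form, was at -0.83 and -1.58.

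The embryonic myosin gene Myh3 differed by -1.88 between L6-HGF and L6-WT in monolayers and by -0.36 in sheets. Acta1 was thus the only 1 of the 35 past 2-fold between the lines in sheets, where 0.95% of all genes were past 2-fold lower. In monolayers Myh3, Acta1, Tnnc2 and Tnnc1 were the 4, all lower, and the share of all genes was 0.309%. After quantile normalisation 2 of the 35 passed in sheets. Of the whole list 21 of 35 genes were below 0 in sheets and 24 of 35 in monolayers, as compared to 53.7% and 49.4% of all genes. The medians of the list were -0.04 and -0.21, beside -0.02 and 0.0016 over all genes. Des, the muscle intermediate filament desmin, ran the other way, at 0.76 in sheets and 0.43 in monolayers.

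Between the formats 4 of these genes passed 2-fold in 1 line or both, all lower in sheets where they did. Klhl41, which stabilises sarcomere proteins, was at -1.54 in L6-HGF and -1.91 in L6-WT, and the calsequestrin gene Casq2 at -1.61 in L6-HGF and -1.68 in L6-WT. The muscle enolase gene Eno3 was at -1.45 in L6-HGF and -0.85 in L6-WT, and Myh3 at 0.22 in L6-HGF and -1.30 in L6-WT. That made 3 of 35 in each line, while 2.57% of all genes were past 2-fold lower in L6-HGF and 0.492% in L6-WT. The medians of the list were 0 in L6-HGF and -0.18 in L6-WT, beside 0.03 over all genes in each line.

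Of 17 genes of the muscle progenitor state, 12 were measured. Spry1, an inhibitor of growth factor receptor signalling that keeps satellite cells quiescent in mice, had L6-HGF minus L6-WT differences of -0.79 in sheets and -1.47 in monolayers. It was the only 1 of the 12 past 2-fold between the lines, in monolayers, where 0.309% of all genes were past 2-fold lower. Met, the receptor of hepatocyte growth factor, was the only 1 past 2-fold between the formats, at -1.25 in L6-HGF and -0.61 in L6-WT, and its L6-HGF minus L6-WT difference was -0.42 in sheets and 0.22 in monolayers. Past 2-fold lower between the formats in L6-HGF were 2.57% of all genes. The medians of the 12 genes between the lines were -0.21 in sheets and -0.0017 in monolayers, beside -0.02 and 0.0016 over all genes.

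**Figure D4:**
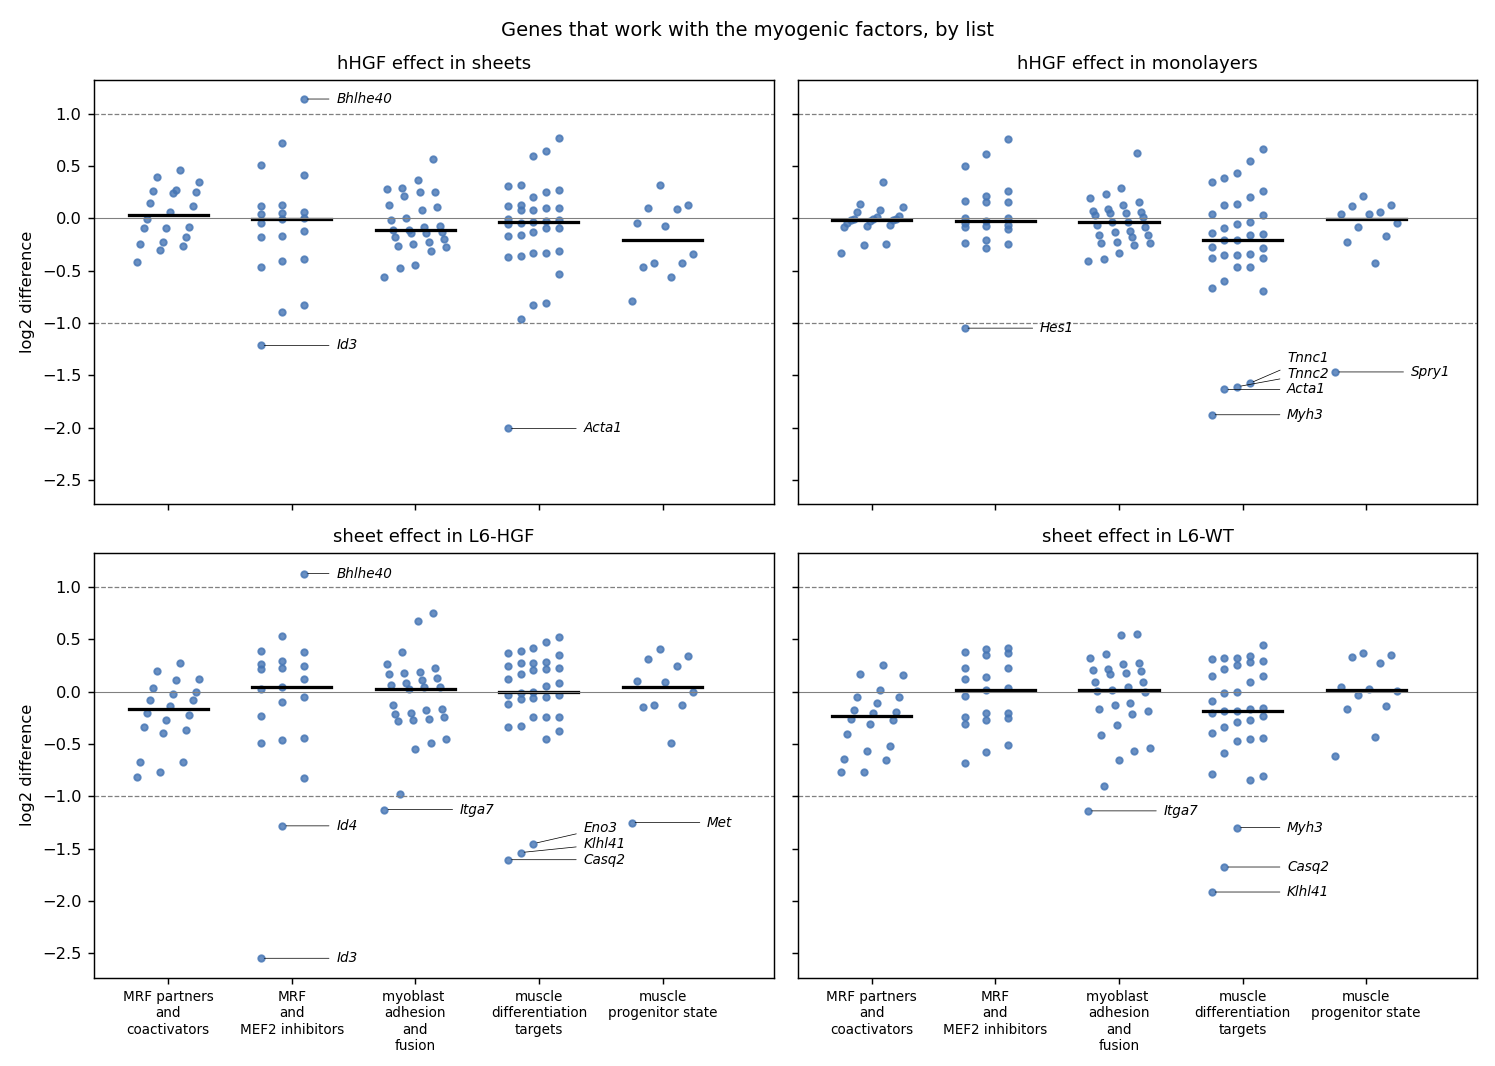
Log2 differences (y axis) of the measured genes of the 5 lists (x axis) in the 4 comparisons, with each gene as a point and the median of the list as a bar. Genes past the dashed 2-fold lines are named. Between L6-HGF and L6-WT in monolayers the 4 sarcomere genes lie between -1.88 and -1.58, well below the list's median of -0.21, and the partners and coactivators stay inside the lines in all 4 panels.

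Markers of other cell types moved beside these genes. Of 11 fibroblast markers all 11 were below 0 between L6-HGF and L6-WT in sheets (median -0.61) and 8 in monolayers (median -0.21). Over all genes 53.7% were below 0 in sheets and 49.4% in monolayers, with medians of -0.02 and 0.0016. Past 2-fold lower were 0.95% of all genes in sheets and 0.309% in monolayers. Postn, a matrix protein gene, was past 2-fold at -1.12 in sheets and -1.47 in monolayers, and Dpt at -1.08 and -1.23. In sheets as compared to monolayers, 1.17% of all genes were past 2-fold higher in L6-HGF and 0.717% in L6-WT. Of the 11 markers 4 were past 2-fold higher in each line. They were Dpt, at 3.48 in L6-HGF and 3.34 in L6-WT, Dcn, at 2.39 and 3.36, Postn, at 2.84 and 2.50, and Lum, at 1.04 and 2.07. The medians of the 11 were -0.28 in L6-HGF and 0.0066 in L6-WT, beside 0.03 over all genes in each line. Below 0 were 45.9% and 45.6% of all genes, and 7 of the 11 markers in L6-HGF and 5 in L6-WT. Their part in the differences of Mymk, Myog and the MEF2 genes was not tested, and since whole cultures were profiled, fewer cells of a type and less RNA per cell cannot be told apart.

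Of 6 myoblast markers 1, Itga7, passed 2-fold, and only between the formats. Of 5 smooth muscle markers 1 passed, Smtn, at -1.17 for sheet minus monolayer in L6-HGF, while none of 6 adipocyte and 4 bone and cartilage markers did. Past 2-fold either way between the formats were 3.75% of all genes in L6-HGF and 1.21% in L6-WT. The gap between 3′ and 5′ probe sets of a transcript grows as RNA breaks down, and it is given here relative to its median over the arrays. For hexokinase it was 0.19 in the L6-HGF sheet and 0.15 in the L6-WT sheet, and -0.10 in the L6-HGF monolayer and -0.17 in the L6-WT monolayer. For beta-actin it was 0.08 in the L6-HGF sheet and 0.11 in the L6-WT sheet, and -0.12 in the L6-HGF monolayer and -0.06 in the L6-WT monolayer. Both transcripts therefore had a wider gap in sheets than in monolayers, over ranges of 0.35 and 0.23, whereas GAPDH, with a range of 0.10, did not separate the formats. Their part in the sheet differences was not tested.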

How the data were processed

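RNA of the 4 cultures was hybridised to Affymetrix Rat Genome arrays. The authors deposited log2 values made by RMA, per the labels, with an RMA version not given in the sources used here. Those deposited log2 values were centred, as the median of each of 31099 probe sets over the arrays was 0. The log base was checked on 20 published folds, all 20 of which were within 0.01 of the values. Without 57 control probe sets, 20826 of 31042 carried 1 gene symbol, and probe sets were averaged into 14217 genes. Gene symbols came from the platform annotation and were checked by Entrez ID against GRCr8. Arrays cannot give more precision than their number, 1 per condition, allows. Differences are L6-HGF minus L6-WT and sheet minus monolayer, called past 2-fold. The additive model of format and line was fitted with limma 3.58.1 in R 4.3.3 (two-sided, Benjamini-Hochberg over all genes, 1 residual degree of freedom). The code was also run on simulated data with equal noise for every gene. Such data cannot check the p-values on these unreplicated arrays. Tables and figures were made with Python 3.11.15, pandas 2.3.3, numpy 2.4.6 and matplotlib 3.10.9.

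The 9 genes were described in every array. From the 5 lists, genes past 2-fold were named, at most the 3 highest and 3 lowest in each difference. The 3 nearest patterns of Mymk and of Myog and single markers past 2-fold were named too. Tnnc1, Tcf3, Tcf4, Tcf12, Smarca4, Cav3, Dock5, Des, Id1, Id2, Txnip, Nrep and the E-box and MEF2 windows shown were chosen after their values were seen. The members and lists were chosen with earlier results of these data known. Alternatives were quantile normalisation, scaling to the bacterial controls, the median of probe sets, leaving out probe sets whose suffix marks several transcripts, a 1.5-fold threshold, probe sets in place of genes, and a model without the second term.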

Additional observations from a re-analysis of the deposited data

Results flagged for a closer look

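Several genes had differences of opposite sign in the 2 formats or in the 2 lines, which was not tested because each condition had 1 array. For some of them 1 of the values was close to 0 and smaller in size than 1 SD of the bacterial controls. Among these, between the lines, were Bhlhe40 at -0.03 and Dcn at 0.02 in monolayers and Eno3 at -0.05 in sheets. Between the formats they included Bhlhe40 at -0.04 in L6-WT and Acta1 at -0.05 in L6-HGF. For the L6-HGF minus L6-WT difference, the value in sheets less that in monolayers was 0.17 for Myod1, -0.14 for Myf6, 0.36 for Mef2a, 0.28 for Mef2c and -0.27 for Mef2d. These 5 are near or below the SD of 0.34 over all genes. It was larger for the inhibitors Id3 at -1.97, Id4 at -1.51 and Bhlhe40 at 1.17, and it was -0.64 for the receptor Met, -0.61 for the enolase Eno3, -0.97 for the matrix gene Dcn and -0.51 for the smooth muscle gene Smtn.

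For the sheet minus monolayer difference, the value in L6-HGF less that in L6-WT was 1.52 for the embryonic myosin gene Myh3, where sheets were higher in L6-HGF and lower in L6-WT. It was 0.64 for Tnnc2, -0.37 for Acta1, 0.66 for Hes1, 0.68 for Spry1, 1.17 for Bhlhe40 and -1.51 for Id4. The 2 contrasts share the same 4 arrays, so that a gene has the same value in both.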

How the results depend on the processing

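Of 28 differences of the 7 genes, all 28 moved by less than 1 SD of the bacterial controls with the median of probe sets or without probe sets whose suffix marks several transcripts. Under quantile normalisation 26 did, the exceptions being Mymk between the lines in monolayers at -1.42 and between the formats in L6-HGF at -0.25. Under scaling to bacterial controls 21 did, the 7 exceptions all being sheet minus monolayer in L6-WT, where the median of all genes moved by -0.20. One sign changed, that of Myf6 between the lines in monolayers, which was -0.02 under that scaling. The count of the 7 genes past the threshold between the lines in sheets was 1, and 0 after quantile normalisation, where Mymk was at -0.80, or 2 at 1.5-fold. Between the lines in monolayers it was 1, and 2 at 1.5-fold, and between the formats in L6-WT it was 0, and 3 at 1.5-fold. Over all genes, scaling to bacterial controls turned the split between the formats in L6-WT to 163 lower and 65 higher, against 70 and 102, and that between the lines in monolayers to 59 and 27, against 44 and 32. After quantile normalisation 63 genes were lower and 31 higher between the lines in sheets, against 135 and 70. After quantile normalisation limma called 586 genes between the formats, against 2, and 2 between the lines, against 0, and it called none of the 7 under any alternative. Without the second term Mymk and Myog had unadjusted limma p-values of 0.271 and 0.294 between the formats. Among the lists, the inhibitors past 2-fold between the lines in sheets were 2, and 1 without those probe sets, and scaling to bacterial controls gave 2 adhesion and fusion genes in each line, against 1, and 5 differentiation genes in L6-WT, against 3, between the formats. No paired analysis was possible because the labels give no replicate numbers, and no array could be left out of a condition with 1 array. Single arrays, values without a level and the lack of an empty-vector line limit every difference given, and the cause of the changes with the processing was not tested.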
